A study of Mus musculus with 12 samples.

Results

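How far the response to LCWE differed between liver and small intestine was measured gene by gene as a tissue difference, that is, the liver effect (LCWE minus PBS) minus the intestinal effect (LCWE minus PBS). It was taken over all 12 libraries for the 13470 of 34348 genes whose RPKM, a read count scaled to gene length and to the library's assigned reads, was 0.5 or more in at least 3 libraries of each tissue. All libraries were of total RNA from C57BL/6 mice, and the 4 groups of 3 were intestine with PBS, intestine with LCWE, liver with PBS and liver with LCWE. PBS libraries carry the numbers 2, 3 and 4 and LCWE libraries 1, 2 and 4, the order in which values are given here. LCWE is the usual abbreviation of Lactobacillus casei cell wall extract, which is injected into mice to model the vasculitis of Kawasaki disease. The labels do not spell it out, and headers of the authors' differential table read LCWECFA, where CFA is not explained. Neither the segment of intestine nor the ages of the mice are given, and it is not said whether libraries came from separate mice, so p-values here reflect only how much these samples varied, and that spread may be technical.

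Bacterial cell wall material is sensed by pattern recognition receptors on macrophages and other cells, which answer with NF-kB activity and cytokines. In liver, interleukin 6 acts through STAT3 on hepatocytes to start the acute phase, in which serum proteins are made in large amounts. Interferon gamma raises guanylate binding proteins, the chemokines CXCL9 and CXCL10, and the class II molecules that present peptides to CD4+ T cells. The small intestine carries a large resident immune system, and its enterocytes take up fat and hold cytochrome P450 enzymes whose levels change along its length.

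Libraries held 30294594 to 40253006 assigned reads in intestine and 34741958 to 44921885 in liver. Alb, which encodes serum albumin, stood between 10520 and 23560 RPKM in liver and between 51.6 and 145 RPKM in intestine. Fabp2, the fatty acid binding protein of enterocytes, stood between 676 and 9408 RPKM in intestine and between 38.6 and 113 RPKM in liver, so both tissue labels matched their defining genes. Small intestine LCWE replicate 4 had the highest intestinal Alb, with the other intestinal libraries between 51.6 and 60.2 RPKM. Liver PBS replicate 2 stood apart from the other liver libraries, with 20.4% of its reads in its 10 most abundant genes.

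A tissue difference was called for 139 genes, which is 1.03% of those tested (limma, Benjamini-Hochberg adjusted p below 0.05). The liver effect was above the intestinal effect for 108 genes (0.802%) and below it for 31 (0.23%), and the median over all tested genes was -0.01 on the log2(RPKM + 0.5) scale. Of the 13470 tissue differences, 6655 were positive and 6815 negative. Most called genes had their larger change in liver, at 107 of 139, against 32 with the larger change in intestine. The means moved in opposite directions for 84 of the 139, with 62 higher in LCWE liver and lower in LCWE intestine and 22 the other way round. A further 44 were higher with LCWE in both tissues and 11 lower in both. Fitted alone, the liver libraries gave a call for 105 of the 139 (85 up and 20 down), against 578 of all tested genes (4.29%, of which 3.68% up and 0.609% down). Fitted alone, the intestinal libraries gave no call among the 139 or elsewhere (0%), with 1779 genes at an unadjusted p below 0.05. Fitted together with the liver libraries, which was added after the data were seen, the intestine gave 69 calls (0.512%), of which 23 were among the 139, and liver gave 882 (6.55%). Across all tested genes, liver and intestinal effects had a Pearson correlation of 0.197, a description over genes, which are not independent replicates. The PBS and LCWE groups did not overlap in liver for 3720 of the 13470 tested genes, and in intestine for 2661. Among the 139 called genes these counts were 126 and 67, which largely follows from the calls.

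**Figure D1:**
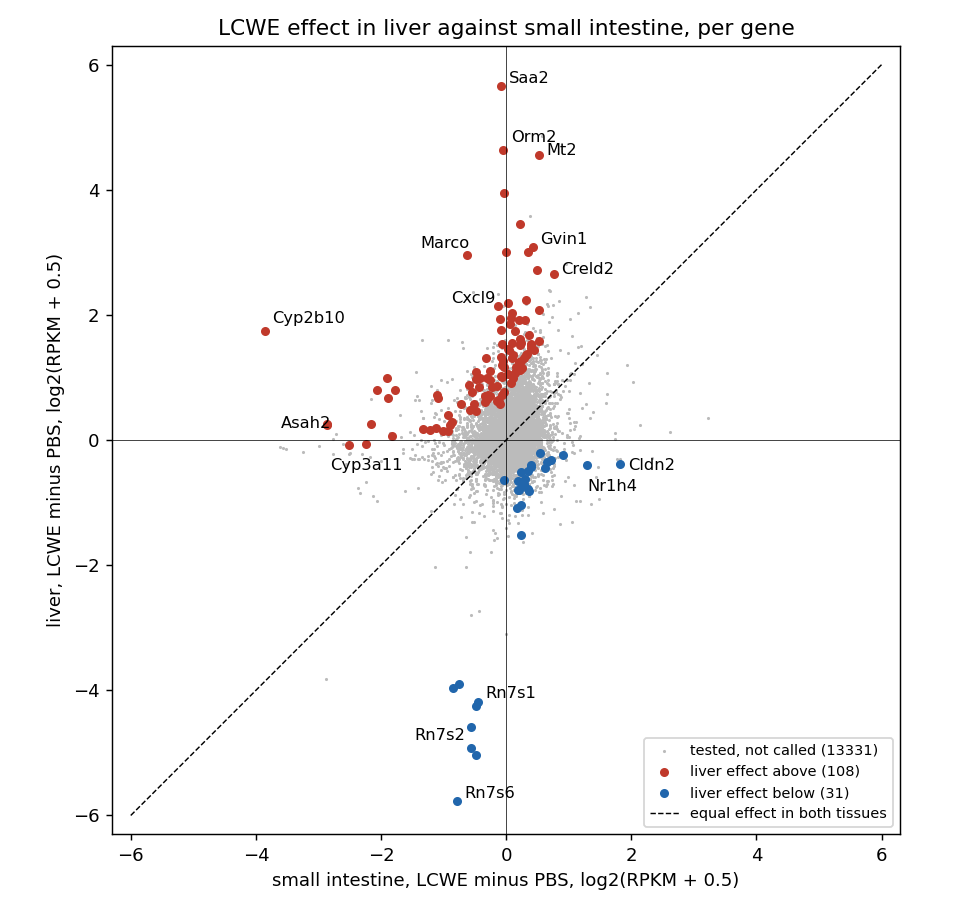
Each point is a gene, with its LCWE minus PBS difference in small intestine on the horizontal axis and in liver on the vertical axis, both in log2(RPKM + 0.5) units from the means of 3 libraries per group. Red points are the 108 called genes above the dashed line of equal effects and blue points the 31 below it, and most lie near a zero intestinal effect and far from a zero liver effect.

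The calls depended on single libraries. The number called ranged from 31 without liver LCWE replicate 2 to 317 without small intestine LCWE replicate 1, and 26 of the 139 genes were called whichever single library was left out. The 26 include Saa2, Moxd1, Cxcl9, Gvin1, H2-Aa, H2-Ab1, H2-Eb1, Cd74, Tyrobp, Hk3, Pkm, Nfkbib, Arfgap3, Cyp3a11, Cyp4b1, Mid1ip1 and Rn7s2. All 139 kept the sign of their difference under each alternative in which they were tested.

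The largest difference was in acute phase genes, the serum proteins that hepatocytes secrete in inflammation. Saa2 (mm10 chr7:46751790-46754313), a serum amyloid A protein carried on high density lipoprotein, stood at 15.8, 8.31 and 10.6 RPKM in PBS liver and at 513, 862 and 457 RPKM in LCWE liver. In intestine it stood at 1.13, 1.203 and 1.31 RPKM with PBS and at 1.19, 1.08 and 1.10 RPKM with LCWE. The liver groups were far apart, and the intestinal groups overlapped at a low level. Its liver effect exceeded its intestinal effect by 5.73 (log2, SE 0.34, adjusted p = 2.99e-05 by limma), made up of a 50.3-fold rise in liver and a ratio of 0.947 in intestine.

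Orm2 (chr4), an orosomucoid that binds small molecules in plasma, stood at 25.8, 13.3 and 15.8 RPKM in PBS liver and at 580, 1028 and 154 RPKM in LCWE liver. Its intestinal values lay between 1.12 and 1.70 RPKM in all 6 libraries, with overlapping groups. The tissue difference was 4.69 (SE 0.74, adjusted p = 0.0159). Serpina3g, an intracellular protease inhibitor of immune cells, stood at 1.74, 1.67 and 2.71 RPKM in PBS liver and 8.89, 9.16 and 12.4 RPKM in LCWE liver, and at 4.84, 4.82 and 4.12 against 5.26, 8.01 and 7.41 RPKM in intestine. Both tissues had groups that did not overlap, with the wider gap in liver, and the difference was 1.56 (adjusted p = 0.0249). These 3 were the called members among 22 tested of 27 acute phase genes, whose median difference was 0.89, with 21 of 22 positive. Without 1 library between 1 and 5 members were called, fewest without small intestine PBS replicate 3. Saa1, the near-identical partner of Saa2, rose 29.1-fold in liver (adjusted p = 0.00465), but its intestinal libraries ranged from 0.930 to 24.7 RPKM with PBS, and its difference of 4.29 did not pass (adjusted p = 0.13). Reads of Saa1 and Saa2, like those of Orm1 and Orm2, may be shared between the copies.

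Regulators that act before and after the acute phase had smaller differences. Stat3, the transcription factor that carries the interleukin 6 signal, stood at 9.69, 8.80 and 9.15 RPKM in PBS liver and at 13.1, 13.99 and 14.6 RPKM in LCWE liver, and at 12.7, 12.6 and 13.6 against 13.3, 11.2 and 11.9 RPKM in intestine. Its liver groups did not overlap and its intestinal groups did, and the difference was 0.67 (SE 0.13, adjusted p = 0.0442). It was the 1 called member among 16 tested of 18 genes of interleukin 6 and STAT3 signalling, whose median was 0.43 (0.26 without liver LCWE replicate 4), and it no longer passed without small intestine PBS replicate 2, among other libraries.

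NF-kB feedback genes differed in the same direction. Tnfaip3 (chr10), the ubiquitin editing enzyme A20 that restrains NF-kB, stood at 0.304, 0.286 and 0.352 RPKM in PBS liver and 1.41, 1.75 and 1.48 RPKM in LCWE liver. Its intestinal values were 5.50, 5.85 and 6.39 RPKM with PBS and 4.76, 5.65 and 6.29 RPKM with LCWE. Liver rose clear of its PBS values while staying below every intestinal library, and the difference was 1.41 (SE 0.17, adjusted p = 0.00609). Tnfaip3 passed the filter in liver only through its LCWE libraries. This held for 15 called genes in all, among them Tnfaip3, Ciita, Cxcl10 and Cyp2b10, and for 189 tested genes, and such genes had to differ in liver to be tested.

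Nfkbib, an inhibitor that holds NF-kB in the cytoplasm, stood at 8.81, 7.28 and 8.11 RPKM in PBS liver and 12.1, 12 and 12.6 RPKM in LCWE liver. In intestine it went the other way, with 19.9, 21.9 and 21.4 RPKM with PBS and 17.0, 14.01 and 12.9 RPKM with LCWE, and neither tissue had overlapping groups. The difference was 1.09 (SE 0.16, adjusted p = 0.0123), made up of a rise of 0.58 in liver that passed (adjusted p = 0.0341) and an intestinal value of -0.52 that did not (adjusted p = 0.238). Tnip1, a partner of A20, and Ikbke, a kinase of the interferon and NF-kB pathways, had differences of 1.04 and 1.02 (adjusted p = 0.0159 for both). In all 4 of 18 tested genes of this list were called, all with the liver effect above, and the median was 0.42. Between 2 and 4 were called without 1 library, fewest without liver LCWE replicate 2.

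Class II antigen presentation genes rose in liver while intestine kept overlapping levels, and 7 of 9 tested members were called. H2-Eb1 (chr17), a class II beta chain, stood at 19.4, 17.6 and 24.7 RPKM in PBS liver and at 95.2, 95.0 and 68.0 RPKM in LCWE liver. Intestine held 346, 360 and 282 RPKM with PBS and 375, 370 and 303 RPKM with LCWE. Intestine was thus above liver in every library, with overlapping groups, and the LCWE liver libraries lay between PBS liver and intestine. The difference was 1.95 (SE 0.24, adjusted p = 0.00665).

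Cd74, the invariant chain that escorts class II molecules, stood at 37.1, 34.3 and 44.2 RPKM in PBS liver and at 146, 154 and 122 RPKM in LCWE liver, against 620 to 731 RPKM in PBS intestine and 630 to 808 RPKM in LCWE intestine. Its groups were apart in liver and overlapped in intestine, with a difference of 1.79 (SE 0.19, adjusted p = 0.00431). Ciita, the transcription factor that switches class II genes on, stood at 0.230, 0.478 and 0.436 RPKM in PBS liver and at 2.48, 2.46 and 1.42 RPKM in LCWE liver, with 10.6 to 15.1 RPKM in PBS intestine and 13.2 to 15.8 RPKM in LCWE intestine. Its liver groups were apart at a level far below intestine, and its difference was 1.32 (SE 0.27, adjusted p = 0.0478), with entry to the test only through LCWE liver. H2-Ab1, H2-Aa and H2-DMb1 had differences of 2.03, 1.84 and 1.39, and Ctss, the protease that trims the invariant chain, 1.02. All 7 called genes, Ciita included, had the liver effect above, 12 genes were listed, and the median was 1.39. H2-DMa and H2-DMb2 were positive at 0.81 and 0.09 and did not pass. Between 4 and 7 were called without 1 library, fewest without small intestine PBS replicate 2.

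Markers of several immune cell types were higher in LCWE than in PBS liver. The summed level of 24 monocyte and macrophage markers was 240 to 294 RPKM in PBS liver and 569 to 817 RPKM in LCWE liver, against 325 to 375 and 419 to 442 RPKM in intestine, with none of the 24 at 0 throughout. For 23 T and NK cell markers the sums were 5.86 to 6.46 and 12.7 to 15.9 RPKM in liver and 75.9 to 162 and 102 to 159 RPKM in intestine. For 18 neutrophil markers they were 2.56 to 6.04 and 24.9 to 62.7 RPKM in liver and 3.77 to 4.69 and 4.39 to 6.40 RPKM in intestine. The sums of 20 B and plasma cell markers overlapped in liver, at 617 to 926 and 807 to 839 RPKM. In intestine they did not, at 4097 to 4763 and 4779 to 7742 RPKM. Single members could differ from the sum, as 4 of the 8 tested were called higher in liver alone, with a median liver effect of 0.81. The part of these cell types in the class II result was not tested. In bulk tissue more cells of a type and more RNA per cell cannot be told apart.

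Macrophage genes themselves held 4 called members of 19 tested. Marco (chr1), a scavenger receptor that binds bacteria, stood at 11.9, 21.7 and 43.4 RPKM in PBS liver and 108, 165 and 319 RPKM in LCWE liver. In intestine it stood at 1.06, 2.82 and 2.26 RPKM with PBS and 0.697, 1.39 and 1.23 RPKM with LCWE. The liver groups were apart though each spread widely, the intestinal groups overlapped, and the difference was 3.59 (SE 0.67, adjusted p = 0.0327).

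Tyrobp, the adaptor through which many myeloid receptors signal, stood at 3.66, 3.47 and 4.31 RPKM in PBS liver and 7.47, 10.2 and 8.72 RPKM in LCWE liver, against 5.05 to 5.77 RPKM in PBS intestine and 3.73 to 5.06 RPKM in LCWE intestine. LCWE liver was above every intestinal library, and the difference was 1.36 (SE 0.20, adjusted p = 0.0123). Mpeg1, a pore forming protein of macrophages, had a difference of 1.09 (adjusted p = 0.0438). The median of the 19 was 0.80 and all 19 were positive, against 6655 of all 13470 tested genes. Without 1 library 1 to 4 were called, fewest without small intestine PBS replicate 3. Hk3 and Cyba, a hexokinase and an oxidase subunit of phagocytes that are in no list, were called at 1.04 and 0.93.

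Only 2 of 18 neutrophil markers, S100a9 and Csf3r, could be tested in both tissues. S100a9, a subunit of calprotectin, stood at 3.78, 1.07 and 1.61 RPKM in PBS liver and 16.9, 30.3 and 13.1 RPKM in LCWE liver, and between 0.479 and 1.13 RPKM in all intestinal libraries. Liver groups were apart and intestinal groups overlapped, with a difference of 2.66 (SE 0.51, adjusted p = 0.0372), which no longer passed without small intestine PBS replicate 2, among other libraries. Csf3r, the receptor for granulocyte colony stimulating factor, had a difference of 0.92 that did not pass (adjusted p = 0.143).

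**Figure D2:**
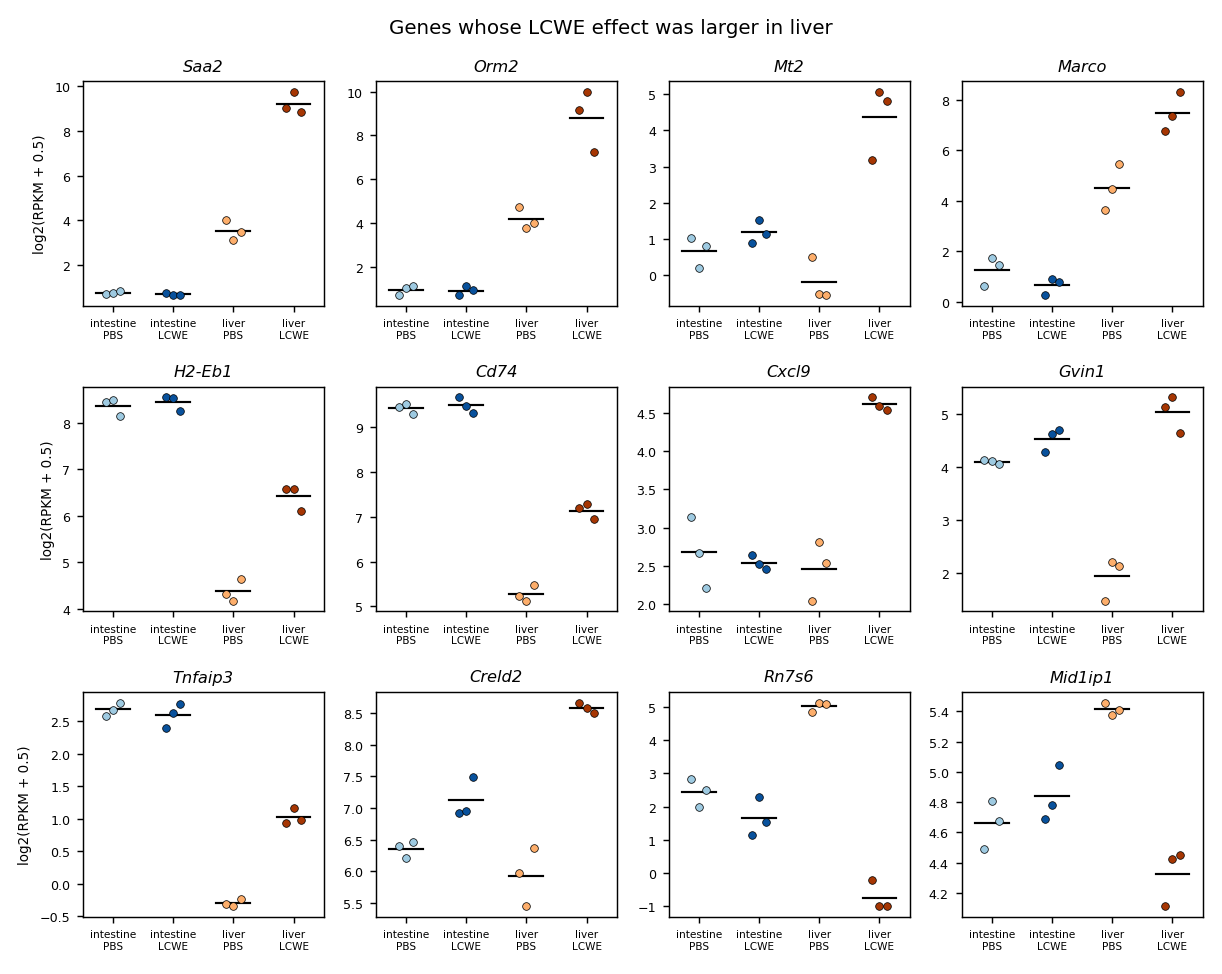
Levels of 12 genes on a log2(RPKM + 0.5) axis, with 1 point per library, a bar at the mean of each group of 3, and the 4 groups from left to right as intestine PBS, intestine LCWE, liver PBS and liver LCWE. In liver the PBS and LCWE points separate in all 12 panels, upward for 10 genes from Saa2 to Creld2 and downward for Rn7s6 and Mid1ip1, and for H2-Eb1, Cd74 and Tnfaip3 the LCWE liver points remain below the intestinal ones.

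Interferon response genes were among the called differences. Cxcl9 (chr5), a chemokine that draws activated T cells, stood at 3.62, 6.54 and 5.30 RPKM in PBS liver and 25.6, 23.5 and 22.7 RPKM in LCWE liver, against 8.34, 5.86 and 4.14 RPKM in PBS intestine and 5.75, 5.23 and 5.01 RPKM in LCWE intestine. The 3 LCWE liver libraries stood above all others and the intestinal groups overlapped, giving a difference of 2.28 (SE 0.32, adjusted p = 0.011). Cxcl10, a second ligand of the same receptor, stood at 0.318, 0.198 and 0.497 RPKM in PBS liver and 1.21, 0.949 and 1.28 RPKM in LCWE liver. In intestine it stood at 1, 0.999 and 0.806 RPKM with PBS and 0.375, 0.691 and 0.525 RPKM with LCWE, so the groups were apart in opposite directions. Its difference was 1.47 (SE 0.23, adjusted p = 0.0159), with the intestinal part of -0.49 not passing alone (adjusted p = 0.311), and it entered the test only through LCWE liver. Itgb2, the beta 2 integrin chain of leukocytes, was called at 1.04, and these 3 were the called members among 16 tested of 31 chemokines and adhesion molecules, whose median was 0.89. Between 1 and 3 were called without 1 library, fewest without small intestine PBS replicate 3.

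Gvin1 (chr7), a very large interferon-inducible GTPase, stood at 2.27, 4.13 and 3.90 RPKM in PBS liver and 34.7, 39.3 and 24.5 RPKM in LCWE liver, and at 17.1, 16.8 and 16.1 against 18.8, 24.0 and 25.4 RPKM in intestine. PBS liver was the lowest group and LCWE liver reached or passed the level of LCWE intestine, with a difference of 2.67 (SE 0.30, adjusted p = 0.00431). Gbp3, a guanylate binding protein that attacks the membranes around intracellular microbes, stood at 10.5, 9.10 and 9.06 RPKM in PBS liver and 28.4, 27.2 and 24.5 RPKM in LCWE liver, and at 26.4, 24.1 and 21.9 against 30.0, 33.9 and 35.2 RPKM in intestine. It was higher with LCWE in every library of both tissues and by more in liver, with a difference of 0.99 (SE 0.16, adjusted p = 0.0159). Gbp2b and Gbp9 were called at 1.24 and 1.03. The 4 called genes were among 20 tested of 21 interferon-inducible GTPases, whose median was 0.94 with 19 positive, and 1 to 8 were called without 1 library, fewest without small intestine PBS replicate 3. Of 39 tested type I interferon stimulated genes, 36 were positive with a median of 0.46 and none was called. Oasl2, an antiviral protein of that list, had 1.08 (adjusted p = 0.163).

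Promoters of Cxcl10, Gbp2b, Gbp3 and Ctss are shown, 4 of the 7 called genes that held the same interferon motif. All 7 had the liver effect above, and the 4 shown were picked after their values were seen. In intestine Cxcl10 was lower and Gbp3 higher with LCWE. RefSeq promoter sequences (GRCm38.p6, 250 bases before and 50 bases after each start) matched 96 of the 139 called genes. The interferon response core (TTTC, any pair of bases, then TTTC) was searched on both strands and found in 7 of 81 such genes with the liver effect above and in 0 of 15 with it below, against 3.99% of all 27025 genes of the promoter table. The 100 bases around the match follow, written along the gene's strand with the match in capitals. They are chr5:92349040-92349139 on the minus strand for Cxcl10, and chr3:142594665-142594764, chr3:142559944-142560043 and chr3:95526686-95526785 on the plus strand for Gbp2b, Gbp3 and Ctss. Gbp3 holds a second match that overlaps the one shown.
Cxcl10: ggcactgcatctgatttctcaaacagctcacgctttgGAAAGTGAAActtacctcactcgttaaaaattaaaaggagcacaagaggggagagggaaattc
Gbp2b: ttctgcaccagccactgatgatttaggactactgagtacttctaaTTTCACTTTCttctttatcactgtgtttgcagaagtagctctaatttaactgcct
Gbp3: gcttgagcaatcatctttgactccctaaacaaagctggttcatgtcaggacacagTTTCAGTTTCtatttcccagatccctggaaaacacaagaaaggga
Ctss: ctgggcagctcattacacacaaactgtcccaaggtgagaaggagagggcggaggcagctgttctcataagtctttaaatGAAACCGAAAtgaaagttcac
In Cxcl10 and Ctss the core lies on the opposite strand, and it lies close to the start site in Ctss and farther upstream in Cxcl10. The other called genes with a match were Apol10b, Apol9a and Sec23b. The STAT site TTCCNGGAA matched Eif2ak3, Moxd1 and Tnip1 (1.35% of all genes), and the NF-kB site (GGGA, any base, then TTTCC) matched no called gene (0.466% of all genes). A match is a description of letters and was not tested as a site.

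Endoplasmic reticulum chaperones and folding factors, which cells raise when secretion loads that compartment, differed next. Creld2 (chr15), a secreted disulfide isomerase of the stress response, stood at 62.3, 43.1 and 82.5 RPKM in PBS liver and 406, 383 and 363 RPKM in LCWE liver. Intestinal libraries held 83.8, 73.7 and 87.9 RPKM with PBS and 121, 124 and 179 RPKM with LCWE. It was higher with LCWE in every library of both tissues, 6.298-fold in liver and 1.70-fold in intestine, and the difference was 1.89 (SE 0.30, adjusted p = 0.0159).

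Dnajb9, a co-chaperone of BiP, stood at 26.8, 19.4 and 29.2 RPKM in PBS liver and 66.6, 64.2 and 75.3 RPKM in LCWE liver, while intestine held 17.1 to 24.6 RPKM with PBS and 20.3 to 21.8 RPKM with LCWE. Only the liver groups were apart, with a difference of 1.42 (SE 0.23, adjusted p = 0.0165). Sdf2l1, another partner of BiP, and Eif2ak3, the sensor kinase PERK, were called at 1.04 and 0.93, which made 4 of 29 tested genes, with 25 positive and a median of 0.41. None of the 4 was called without liver LCWE replicate 2, and up to 5 were called without other libraries. Called genes of transport between reticulum and Golgi, in no list and singled out after their values were seen, were Sec24d at 1.48, Sec23b at 0.88, Arfgap3 at 1.64 and Stx5a at 0.82. Asns, the asparagine synthetase gene that ATF4 drives, stood at 0.991, 0.857 and 0.855 RPKM in PBS liver and 4.37, 4.79 and 2.95 RPKM in LCWE liver, and at 3.51 to 4.17 against 4.05 to 5.99 RPKM in intestine. LCWE liver came to the level of intestine, and the difference was 1.31 (SE 0.25, adjusted p = 0.0323). It was the 1 called gene of 14 tested in the ATF4 list, and it no longer passed without small intestine PBS replicate 2, among other libraries.

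The ER stress element (CCAAT and then CCACG, with 9 bases of any kind between them), a site of the unfolded protein response, was found on either strand in 0.137% of all genes of the promoter table. Creld2 was the called gene that held it, on the opposite strand, at chr15:88819480-88819579 in the 100 bases shown with the match in capitals.
Creld2: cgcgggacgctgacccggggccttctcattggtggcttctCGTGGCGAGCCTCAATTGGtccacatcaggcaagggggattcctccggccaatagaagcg

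Metallothioneins, small proteins that bind zinc and are raised in the acute phase, had large differences at low levels. Mt2 (chr8) stood at 0.914, 0.190 and 0.173 RPKM in PBS liver and 8.60, 33.3 and 27.7 RPKM in LCWE liver, and between 0.637 and 2.353 RPKM in the intestinal libraries. The liver groups were apart, the intestinal ones overlapped, and the difference was 4.05 (SE 0.64, adjusted p = 0.0159). Mt1 behaved alike, at 1.26, 0.314 and 0.612 RPKM in PBS liver, 3.79, 10.8 and 16.8 RPKM in LCWE liver and 2.03 to 4.03 RPKM in intestine, with a difference of 3.02 (SE 0.62, adjusted p = 0.0478). Slc39a14, the importer that brings zinc and iron into hepatocytes in inflammation, stood at 4.39, 5.51 and 6.57 RPKM in PBS liver and 10.5, 10 and 9.94 RPKM in LCWE liver, and was called at 1.07 (SE 0.18, adjusted p = 0.0191). These were 3 of 12 tested genes of the list, with a median of 0.52, and none of the 3 was called without liver LCWE replicate 2. Moxd1, a copper-dependent monooxygenase family member in no list, had one of the largest differences at 3.998 (adjusted p = 0.011). It stood at 1.02, 0.960 and 1.88 RPKM in PBS liver, 60.5, 18.3 and 16.8 RPKM in LCWE liver and 0.497 to 0.901 RPKM in intestine, so a single LCWE liver library was far above the other two.

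Of the 85 called genes that rose in liver, 75 had a higher mean RPKM in PBS intestine than in PBS liver. This is near the 87.3% among all 496 genes called upward in liver, so it is no trait of the 85, and the share over all tested genes was 72.1%. In 51 of the 75, mean LCWE liver was still below mean PBS intestine, as for H2-Eb1 and Tnfaip3, and in 24 it was above, as for Gvin1 and Tyrobp.

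The lowest tissue differences were in 7SL RNA, the RNA scaffold of the signal recognition particle, which docks ribosomes making secreted proteins at the endoplasmic reticulum. Its genes Rn7s1 and Rn7s2 had identical transcripts in GENCODE, so reads can be divided between these copies. Rn7s6 was the same as these at 254 of its 291 bases (84.4% identity in the alignment), and whether it shared reads with them is not known. Rn7s6 stood at 28.5, 34.5 and 33.7 RPKM in PBS liver and at 0.362, 0 and 0 RPKM in LCWE liver, which is 1116 reads over 3 libraries against 4. In intestine it stood at 6.66, 3.43 and 5.22 RPKM with PBS and 1.71, 4.36 and 2.44 RPKM with LCWE. The liver groups were far apart and the intestinal ones overlapped, with a difference of -4.98 (SE 0.43, adjusted p = 0.000938). Rn7s6 passed the filter in liver only through its PBS libraries, so it had to differ in liver to be tested. In all, 2 called genes were below RPKM 0.5 in every LCWE liver library, and 1 in every PBS intestinal library.

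Rn7s2 stood at 57.1, 62.7 and 56.9 RPKM in PBS liver and 2.90, 0.890 and 2.69 RPKM in LCWE liver, and at 156, 73.0 and 104 against 81.1, 72.0 and 62.7 RPKM in intestine. Rn7s1 stood at 488, 420 and 429 RPKM in PBS liver and 63.2, 13.5 and 16.1 RPKM in LCWE liver, and at 411, 252 and 371 against 295, 225 and 227 RPKM in intestine. LCWE liver was the lowest group for both genes, and the differences were -4.03 (adjusted p = 0.00431) and -3.73 (adjusted p = 0.0209). The identical copies had different levels in the table, and how reads were assigned between copies is not stated. All 3 genes also overlap other gene models in the annotation. Same-strand models over Rn7s1 and Rn7s2 were themselves called, so the calls at these loci are not separate.

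Rn7sk, the 7SK RNA that holds back transcription elongation, stood at 22.7, 11.97 and 9.83 RPKM in PBS liver and 3.66, 1.88 and 0.522 RPKM in LCWE liver, and its difference of -2.31 did not pass (adjusted p = 0.16). The 3 called genes were all in 18 tested of a list of 7SL, 7SK and their partner proteins, whose median was 0.00. None of the protein partners had a called tissue difference, in either direction. They ranged from Hexim1 at -0.65 (adjusted p = 0.104), a 7SK partner, to Srp54b at 0.56 (adjusted p = 0.0825), a subunit of the signal recognition particle. In liver alone 3 members of the list were called higher and 5 lower, the latter including the 7SL genes. Between 1 and 3 of the list were called without 1 library, fewest without liver PBS replicate 3. Without any 1 of the liver PBS libraries Rn7s6 missed the filter and was not tested, which lowers these counts.

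Coding genes with the liver effect below included genes of fat metabolism. Mid1ip1 (chrX), an activator of acetyl-CoA carboxylase and so of fatty acid synthesis, stood at 43.5, 41.0 and 42.1 RPKM in PBS liver and 16.8, 21.0 and 21.3 RPKM in LCWE liver, and at 21.97, 27.6 and 25.1 against 25.3, 27.0 and 32.5 RPKM in intestine. It fell by 1.09 on the log2 scale in liver, its intestinal groups overlapped, and the difference was -1.26 (SE 0.18, adjusted p = 0.0123). It overlaps Gm14493 on the opposite strand, which was called at -1.27, and without known strandedness the reads of the pair cannot be told apart. Mid1ip1 was the 1 called gene of 22 tested in fatty acid and triglyceride synthesis, whose median was -0.27, and between -0.64 without liver LCWE replicate 4 and -0.05 without small intestine PBS replicate 2.

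Hacl1, a peroxisomal lyase that shortens 2-hydroxy and branched fatty acids, stood at 79.8, 91.2 and 79.0 RPKM in PBS liver and 48.2, 45.8 and 55.5 RPKM in LCWE liver, and at 1.29 to 1.41 against 1.502 to 1.89 RPKM in intestine. The groups were apart in opposite directions, with a difference of -0.99 (SE 0.15, adjusted p = 0.0159). Plin2, the coat protein of lipid droplets, stood at 114, 108 and 99.4 RPKM in PBS liver and 73.1, 79.6 and 85.9 RPKM in LCWE liver, and at 13.3 to 14.7 against 16.5 to 19.7 RPKM in intestine. Its groups were likewise apart in opposite directions, with a difference of -0.83 (SE 0.15, adjusted p = 0.0262) although neither tissue passed alone (adjusted p = 0.0742 in liver and 0.24 in intestine). Plin2 was 1 of 2 called genes among 33 tested in the list of PPAR alpha targets and fatty acid oxidation, the other being Cd36 in the opposite direction, and neither was called without small intestine PBS replicate 3. Hyi, Tbcel, Tmem254b and Add3 were further called genes in this direction, at -1.17, -0.85, -0.99 and -0.80. Hacl1 overlaps Btd in the annotation.

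In 29 of the 139 called genes the larger change was in intestine and liver alone did not pass. Of these, 21 were lower and 8 higher in LCWE than in PBS intestine. The PBS and LCWE intestinal groups did not overlap for any of the 29, against 2661 of 13470 tested genes. The 29 were chosen by those same intestinal values, so this separation largely follows from the choice and is no separate support. None of the 29 passed in intestine alone, and 22 passed in the fit of all 4 groups. Cyp3a11 (chr5), a cytochrome P450 that oxidises drugs and bile acids, stood at 36.5, 48.5 and 43.7 RPKM in PBS intestine and 10.5, 5.26 and 6.23 RPKM in LCWE intestine. In liver it stood at 356, 463 and 443 RPKM with PBS and 371, 388 and 434 RPKM with LCWE. The intestinal groups were apart and the liver groups overlapped, with a difference of 2.44 (SE 0.30, adjusted p = 0.00663). The intestinal value alone was -2.52, with an adjusted p of 0.116 in intestine alone and 0.00126 in the fit of all 4 groups.

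The promoter of Cyp3a11 held the HNF4 site CAAAGTCCA, found on either strand in 0.555% of all genes of the promoter table. HNF4 is a nuclear receptor of hepatocytes and enterocytes. The 100 bases at chr5:145879909-145880008 on the minus strand are shown with the match in capitals.
Cyp3a11: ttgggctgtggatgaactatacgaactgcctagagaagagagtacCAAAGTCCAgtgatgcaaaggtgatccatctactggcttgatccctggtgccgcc
Slfn2 was the other called gene with this match. The DR1 site (AGGTCA, any base, then AGGTCA; 0.0481% of all genes) and the HNF1 site (GTTAAT, any base, then ATTAAC; 0.0111%) matched no called gene.

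Cyp2b10 (chr7), a P450 that is raised through the receptor CAR, had opposite directions in the tissues. It stood at 20.5, 12.8 and 6.67 RPKM in PBS intestine and 0.353, 0.764 and 0.112 RPKM in LCWE intestine, and at 0.149, 0.291 and 0.0722 RPKM in PBS liver and 1.65, 1.33 and 2.32 RPKM in LCWE liver. The groups did not overlap in either tissue, and the difference was 5.60 (SE 0.51, adjusted p = 0.000946), though in liver the gene passed the filter only through its LCWE libraries. The liver rise of 1.75 passed alone (adjusted p = 0.00915), and the intestinal value of -3.86 did not (adjusted p = 0.116, or 0.00128 in the fit of all 4 groups). Cyp4b1, a P450 in none of the lists, stood at 20.9, 24.2 and 19.8 RPKM in PBS intestine and 7.71, 5.55 and 4.38 RPKM in LCWE intestine, with 3.71 to 4.84 RPKM in all liver libraries, and its difference was 1.88 (adjusted p = 0.00827). Por, the reductase that feeds electrons to all microsomal P450 enzymes, was called at 1.14. Of 38 tested genes of the P450 and conjugation list, 3 were called (Cyp2b10, Cyp3a11 and Por), the median was 0.19 (0.04 without liver LCWE replicate 4), and 1 to 7 were called without 1 library, fewest without liver LCWE replicate 1.

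Other genes with the larger change in intestine follow. Asah2, a ceramidase of the brush border, stood at 202, 118 and 63.2 RPKM in PBS intestine and 13.5, 27.4 and 9.81 RPKM in LCWE intestine, with 4.80 to 6.22 RPKM in all liver libraries. Intestinal groups were apart over a wide spread, and the difference was 3.10 (SE 0.55, adjusted p = 0.0256). Cd36, a receptor for long-chain fatty acids, stood at 8.20, 5.91 and 6.56 RPKM in PBS intestine and 2.22, 2.57 and 2.44 RPKM in LCWE intestine, and at 8.51, 5.37 and 4.88 against 6.75, 8.06 and 6.12 RPKM in liver. Only the intestinal groups were apart, with a difference of 1.51 (SE 0.27, adjusted p = 0.0254). Cd36 was the 1 called gene of 29 tested apolipoproteins and fat absorption genes, whose median was 0.80 with 22 positive (0.52 without small intestine LCWE replicate 4), and 0 to 5 were called without 1 library, none without small intestine PBS replicate 3.

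Apoa4, an apolipoprotein of chylomicrons, stood at 6795, 3054 and 1365 RPKM in PBS intestine and 454, 297 and 127 RPKM in LCWE intestine, and its difference of 3.43 did not pass (adjusted p = 0.0659). Creb3l3, a membrane-bound transcription factor that drives Apoa4 and other lipid genes, stood at 77.4, 64.9 and 47.3 RPKM in PBS intestine and 19.6, 13.8 and 7.58 RPKM in LCWE intestine, and at 51.9 to 70.7 against 59.3 to 61.9 RPKM in liver. The intestinal groups were apart and the liver groups overlapped, with a difference of 2.18 (SE 0.40, adjusted p = 0.0294). Hsd17b6, a steroid dehydrogenase, stood at 67.8, 44.7 and 25.1 RPKM in PBS intestine and 3.80, 11.9 and 3.29 RPKM in LCWE intestine, and was called at 3.13 (SE 0.63, adjusted p = 0.0445). Pcx, pyruvate carboxylase, stood at 6.44, 6.38 and 8.39 RPKM in PBS intestine and 3.54, 3.48 and 3.30 RPKM in LCWE intestine, and at 47.3 to 61.6 against 58.2 to 62.9 RPKM in liver, with a difference of 1.08 (SE 0.18, adjusted p = 0.0185).

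Ppargc1a, a coactivator of mitochondrial and gluconeogenic genes, was higher with LCWE in liver and lower in intestine, at 0.775, 1.29 and 1.12 against 2.48, 1.67 and 2.32 RPKM in liver and 5.84, 4.94 and 3.80 against 3.48, 3.40 and 2.60 RPKM in intestine. Its difference was 1.31 (SE 0.27, adjusted p = 0.0447), and with Pcx it made 2 called of 26 tested genes of gluconeogenesis and fasting, whose median was -0.07 (0.08 without liver PBS replicate 4). Neither was called without small intestine LCWE replicate 4. Ano6, a lipid scramblase, and Apol9a, an interferon-inducible apolipoprotein L, were called at 2.56 and 2.55. Ano6 overlaps A130051J06Rik on the opposite strand, which was called at 2.89.

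Fewer genes were higher in LCWE intestine without a matching rise in liver. Cldn2 (chrX), a claudin that forms cation pores between epithelial cells, stood at 15.7, 20.3 and 36.2 RPKM in PBS intestine and 80.8, 68.0 and 98.3 RPKM in LCWE intestine, and at 25.1, 21.4 and 17.5 against 17.4, 16.1 and 14.9 RPKM in liver. The groups were apart in opposite directions, narrowly so in liver, and the difference was -2.20 (SE 0.36, adjusted p = 0.0185). Nr1h4 (chr10), the bile acid receptor FXR, stood at 12.3, 14.6 and 21.6 RPKM in PBS intestine and 49.3, 30.2 and 41.0 RPKM in LCWE intestine, and at 34.3, 31.1 and 30.8 against 22.4, 25.1 and 25.2 RPKM in liver. Neither tissue had overlapping groups, and the difference was -1.70 (SE 0.29, adjusted p = 0.0216).

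Nr1h4 was the 1 called gene of 17 tested in the bile acid list, whose median was -0.35 with 14 negative (-0.16 with 11 negative without small intestine LCWE replicate 4), and it was lost without small intestine PBS replicate 3. Abcc2, a canalicular and brush border exporter of that list, had a liver effect of -0.15 and an intestinal effect of -1.65, and its tissue difference did not pass (adjusted p = 0.12). Arhgef10l, a guanine nucleotide exchange factor, stood at 1.65, 1.75 and 2.09 RPKM in PBS intestine and 3.43, 3.55 and 4.64 RPKM in LCWE intestine, with overlapping groups in liver, and was called at -1.14 (SE 0.20, adjusted p = 0.0271). Sgf29, a reader of histone methylation in the SAGA complex, was called at -1.004 (adjusted p = 0.0159), and its locus overlaps 2510046G10Rik, called at -1.07, and Sult1a1, whose mean level was 55.3 RPKM against 5.64 RPKM for Sgf29, both on the opposite strand.

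Genes that vary along the length of the small intestine moved with these results. Gata4, a factor of the proximal epithelium, stood at 8.34, 5.31 and 3.79 RPKM in PBS intestine and 0.216, 1.68 and 0.280 RPKM in LCWE intestine. Lct, the proximal enzyme lactase, stood at 86.5, 30.1 and 3.02 RPKM with PBS and 0.186, 1.46 and 0.138 RPKM with LCWE. Fabp6, the bile acid binding protein of the ileum, stood at 69.4, 1716 and 2991 RPKM with PBS and 4837, 4843 and 3517 RPKM with LCWE. So the proximal genes were lower and the ileal gene higher in each LCWE library than in each PBS library, with the widest spread in PBS. Slc10a2, the ileal bile acid transporter, stood at 1.51, 17.6 and 68.4 RPKM with PBS and 259, 70.4 and 112 RPKM with LCWE, and Hoxb7, a Hox gene of posterior identity, at 3.99, 5.20 and 8.04 against 39.4, 13.1 and 34.0 RPKM. In this list of 25 genes 11 could be tested and none had a called tissue difference. The summed level was 3103 to 4335 RPKM in PBS and 4530 to 6337 RPKM in LCWE intestine, with 1 member at 0 in all LCWE libraries. The list mixes proximal and distal genes, and Fabp6 alone made up most of each LCWE sum (6337, 5703 and 4530 RPKM). The sums therefore do not show a rise of the list as a whole. The sum of 30 enterocyte and brush border genes was 13280 to 18890 RPKM with PBS and 4554 to 11790 RPKM with LCWE. In liver the sum was also lower, at 10900 to 13350 against 5532 to 8892 RPKM. The 16 tested members had a median liver effect of -0.08 and none was called in liver alone, so most did not share that fall. The part of these genes in the differences led by intestine was not tested.

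**Figure D3:**
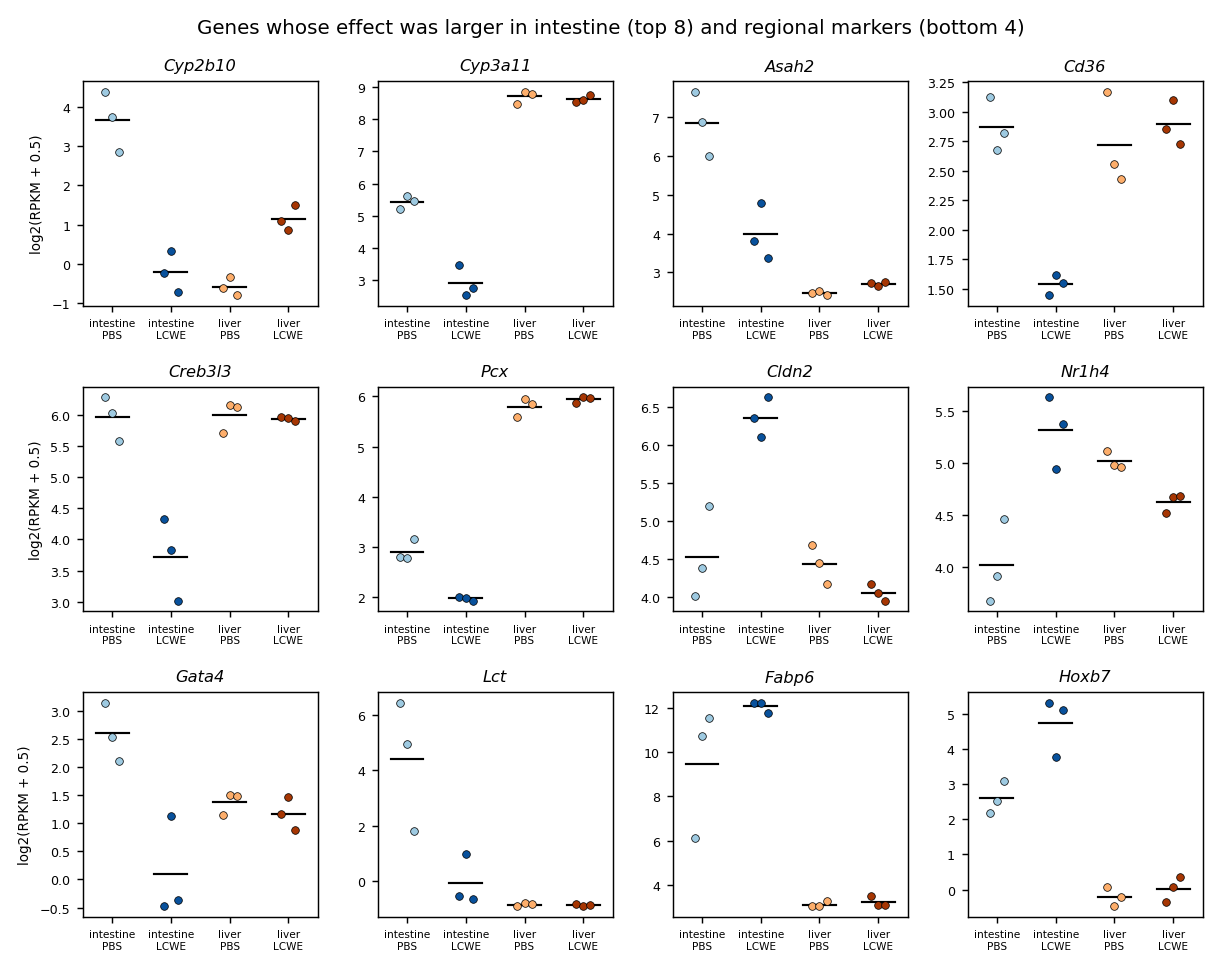
Levels of 8 genes whose larger change was in intestine and, in the bottom row, of 4 genes that vary along the small intestine, on a log2(RPKM + 0.5) axis with 1 point per library and a bar at each mean of 3. The intestinal PBS and LCWE points separate in every panel, downward for Cyp2b10 through Pcx and for Gata4 and Lct, upward for Cldn2, Nr1h4, Fabp6 and Hoxb7, while most liver points lie close together. The genes were picked with their values known, so this separation largely follows from the choice.

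The summed level of fat cell markers was lower with LCWE in both tissues. The 14 markers summed to 77.8 to 148 RPKM in PBS intestine and 35.04 to 48.6 RPKM in LCWE intestine, 1 of them at 0 in all intestinal libraries of each group, and to 355 to 445 against 171 to 289 RPKM in liver. In liver 3 of the 14 were at 0 in all PBS libraries and 2 in all LCWE libraries. The 7 tested had a median effect of 0.01 in liver and -1.035 in intestine, so the lower liver sum was not shared by most of them. Their median difference was 1.11 and none was called. Lipe, hormone-sensitive lipase, came closest at 1.11 (adjusted p = 0.087).

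Several lists had nearly all members on 1 side without a called member. All but 1 of 25 genes of cholesterol synthesis were negative, with a median of -0.77, a median liver effect of -0.56 and a median intestinal effect of 0.26. Pmvk, phosphomevalonate kinase, stood at 167, 95.8 and 110 RPKM in PBS liver and 43.3, 42.7 and 77.9 RPKM in LCWE liver, and at 29.9, 30.5 and 38.4 against 47.9, 36.7 and 34.5 RPKM in intestine. Its difference of -1.46 did not pass (adjusted p = 0.0871). All 32 cytosolic ribosomal protein genes were negative, with a median of -0.24, and without liver PBS replicate 2 there were 24 negative and a median of -0.11. Of 22 hepatocyte secreted proteins 20 were negative, with a median of -0.41, and without small intestine LCWE replicate 4 there were 11 negative and a median of -0.02. In that library the summed level of 24 hepatocyte secreted proteins was 698 RPKM, against 231 to 284 RPKM in the other intestinal libraries. Of 24 class I and immunoproteasome genes, 20 were positive with a median of 0.38, and Tapbp, the tapasin of peptide loading, stood at 0.52 (adjusted p = 0.149). Genes of a pathway are not independent, so these counts describe the lists and are not tests. In all, 28 of the 46 lists had no called member, 46 of the 139 called genes were in a list and 93 were in none.

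**Figure D4:**
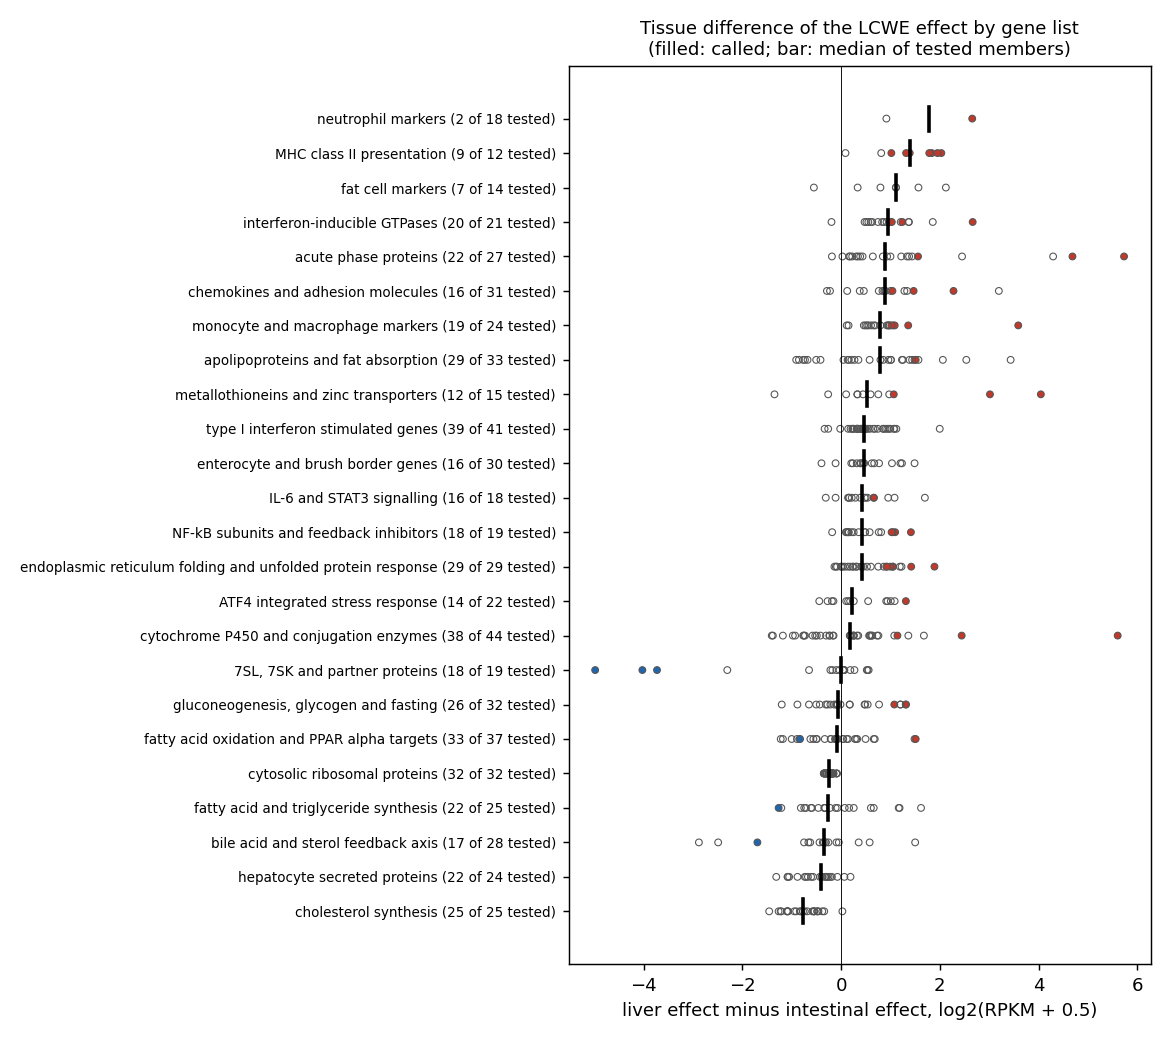
Tissue differences (liver effect minus intestinal effect, log2(RPKM + 0.5)) of the tested members of 24 lists, 1 circle per gene, filled where called and with a bar at the median. The lists run from neutrophil markers, with 2 tested genes and a median of 1.79, to cholesterol synthesis at -0.77, and most filled circles lie on the positive side.

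No gene was called in both tissues fitted alone. The genes nearest to a shared response, with the smallest p in both tissues and the same direction, were Wars, Ly6a, Srprb, H2-Q6, Erdr1 and Acbd4. Wars, tryptophanyl-tRNA synthetase, which interferon gamma raises, stood at 5.27, 4.76 and 4.96 RPKM in PBS liver and 9.67, 10.4 and 9.49 RPKM in LCWE liver, and at 20.1, 19.4 and 16.6 against 25.9, 26.4 and 29.5 RPKM in intestine. It was higher with LCWE in each library of both tissues, with a difference of 0.38 that did not pass (adjusted p = 0.279). Ly6a, the surface protein Sca-1, was 2.09-fold higher in liver and 1.76-fold in intestine, with a difference of 0.25 (adjusted p = 0.742). Acbd4, an acyl-CoA binding protein of peroxisomes, was lower in both, 1.41-fold in liver and 1.93-fold in intestine, with a difference of 0.45 (adjusted p = 0.354). A difference that misses the threshold does not show that the tissues responded alike.

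The authors' deposited table lists genes for each tissue apart, 797 for liver and 220 for small intestine. Of the 139 genes with a called tissue difference, the authors' deposited table lists 82 for liver, 21 for intestine, 5 for both and 41 for neither. Its lowest false discovery rate was 0.000377 in liver and 0.469 in intestine, so no intestinal gene was listed at a low false discovery rate.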

How the data were processed

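RNA-seq of total RNA was read from 1 table in which the authors deposited RPKM for each gene and library. Per the submitters' processing notes, Trimmomatic 0.36, featureCounts of Subread 1.5.1, edgeR 3.12.1 and build mm10 were used; no aligner or strand setting is stated in those notes. The authors' deposited differential table gives log2 fold changes with p-values and FDR, and was used only for counts of listed genes. Of 16 library columns, 4 match no sample here and were left out. Reads recovered from RPKM and gene length came out whole for 100% of values within 0.001.

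Values were taken as log2(RPKM + 0.5) where a gene's RPKM was 0.5 or more in 3 or more libraries of each tissue. One limma 3.58.1 model (R 4.3.3, trended variance) over the 4 groups of 3 gave the tissue difference, with Benjamini-Hochberg adjustment over all 13470 genes and a call threshold of 0.05. Liver and intestine were also fitted alone. The fit was tested on simulated data with known changes. That simulation used the same spread for every gene and put changes in LCWE liver only. It therefore cannot show how reliable the calls are where single libraries differ as they do here. A fold change on this scale understates the change of low genes.

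Genes named were the 15 largest called differences in each direction with a mean RPKM of at least 1 in a group of each tissue (predicted, antibody and similar names left out), 2 of smallest p per list, 6 nearest to a shared response, and Alb and Fabp2. Other called genes, regional markers and genes with promoter matches were named after their values were seen. The members and lists were chosen with earlier results of these data known. Lists are described by counts and medians, with no set test. Promoters came from RefSeq (GRCm38.p6) and 7SL transcripts from GENCODE M21 (GRCm38). Alternatives covered the pseudocount, filter, scaling, weights, recovered reads, a minimum size, a replicate block and each library left out. A few genes and sequences are not reported here.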

Additional observations from a re-analysis of the deposited data

Results flagged for a closer look

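The effect of LCWE differed between liver and intestine, by a test of the difference itself, for 139 genes (1.03% of those tested) and for 45 of the 115 named genes. Most named genes were picked for a large called difference or a small p in their list, so the share among them follows from that choice. For 30 named genes the liver effect was above the intestinal effect (log2 differences). The larger ones were Saa2 5.73, Cyp2b10 5.60, Orm2 4.69, Mt2 4.05, Marco 3.59, Hsd17b6 3.13, Asah2 3.10, Mt1 3.02, Gvin1 2.67, S100a9 2.66, Ano6 2.56, Apol9a 2.55, Cyp3a11 2.44, Cxcl9 2.28 and Creb3l3 2.18. The smaller ones were H2-Eb1 1.95, Creld2 1.89, Cd74 1.79, Cd36 1.51, Cxcl10 1.47, Dnajb9 1.42, Tnfaip3 1.41, Tyrobp 1.36, Asns 1.31, Ppargc1a 1.31, Nfkbib 1.09, Pcx 1.08, Slc39a14 1.07, Gbp3 0.99 and Stat3 0.67. For 15 named genes it was below, among them Rn7s6 -4.98, Rn7s2 -4.03, Rn7s1 -3.73, Cldn2 -2.20, Nr1h4 -1.70, Mid1ip1 -1.26, Hyi -1.17, Arhgef10l -1.14, Sgf29 -1.004, Hacl1 -0.99, Tmem254b -0.99, Tbcel -0.85, Plin2 -0.83 and Add3 -0.80. These values are the ones described above, and their causes were not tested.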

How the results depend on the processing

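All 139 genes kept the sign of their difference wherever tested, and 4 (Cyp2b10, Cyp3a11, Rn7s6 and Saa2) were called in each of 12 other settings. Without a filter 67 genes had the liver effect above, with 234 calls in liver and 18 in intestine. Array weights gave 89 calls, 68 above, and voom on recovered reads 217, 173 above. A minimum difference of 1 (log2) left 20 below and 250 in liver. A single fit of 4 groups, added after seeing the data, gave 882 in liver and 69 in intestine. With a replicate block joining tissues, 25 were called, 16 above and 9 below. With a replicate block joining treatments, 10 were called, 7 above and 3 below, with 41 in liver and 36 in intestine. Deviations of same-numbered libraries from their group means correlated at -0.084 to 0.115 across tissues and -0.111 to 0.185 across treatments. The numbers are thus not shown to pair. Leaving out 1 library gave 31 to 317 calls, 22 to 217 above, 9 to 100 below, 67 to 899 in liver and 0 to 130 in intestine. The count moved over 1.5 times without small intestine PBS replicate 2 (75) or 3 (39), small intestine LCWE replicate 1 (317) or 4 (55), liver PBS replicate 3 (56), or liver LCWE replicate 1 (60), 2 (31) or 4 (90). With 1 library left out, uncalled genes whose sign turned ranged from -0.053 to 0.71 (Car2), -0.40 to 0.12 (Erdr1), -0.16 to 0.012 (H2-Q6) and -1.02 to 0.019 (Hbb-bs). The cause of these shifts was not tested. With 3 libraries a group, a gene with no call is not shown to respond alike in both tissues.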
